A study of Mus musculus with 28 samples.

Results

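Basement membranes are the thin sheets of matrix on which epithelia sit, and 10 genes that build them in the mouse embryo are described here across every group of blastocysts and morulae. They were taken as a fixed list of symbols, chosen with earlier results of these data known, and matched to the deposited tables by Ensembl identifier. The list holds 4 laminin chains (Lama1, Lama5, Lamb1 and Lamc1), both chains of embryonic collagen IV (Col4a1 and Col4a2), the linkers Nid1 (nidogen) and Hspg2 (perlecan), the collagen-binding matrix protein Sparc, and Serpinh1, the collagen chaperone HSP47. All 10 are listed among the 15582 genes of the blastocyst table and 9 among the 16745 of the morula table, out of 17995 genes in either. Lama1 was not analysed here in morulae.

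Each library was made from 1 whole CD1 mouse embryo, and the study asks what embryos need CTCF for, the DNA-binding protein that organizes chromatin loops. Of the blastocysts, 3 were labelled WT_flfl by genotype, 4 het, 4 M_KO and 3 MZ_KO. Of the morulae, 3 were labelled het, 4 del and 6 MZKO. What the codes stand for is not written out, and neither is a Cre driver, mother or collection day; the deposited tables are named embryonic day 3.5 for blastocysts and 2.5 for morulae. MZ_KO and M_KO blastocysts share 1 name prefix and WT_flfl and het blastocysts another, so that MZ_KO against M_KO is the comparison within a prefix. In morulae, het and del share a prefix and MZKO has its own. The blastocyst libraries analysed here were labelled sequencing batch 1 and the morula libraries batch 2, so stage and batch cannot be told apart in them; 1 repeat blastocyst library of batch 2 was not analysed here.

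Recovered reads ran from 7377302 to 27883060 per blastocyst and from 12136606 to 20414013 per morula, except for morula del 6 with 1635553, where a count of 0 allows up to 1.74 CPM (3 reads; at most 0.253 CPM in the other morulae). Levels below are read counts per 1000000 (CPM) as scaled by the authors; these floors cover counting error only. The targeted gene Ctcf stood at 95.1 ± 6.02 CPM (mean ± SD) in WT_flfl, 67.5 ± 9.73 in het, 69.5 ± 15.6 in M_KO and 3.62 ± 0.660 in MZ_KO blastocysts. Among morulae, het embryos had 38.6 ± 14.6 CPM of Ctcf, MZKO embryos 4.33 ± 3.60 and del embryos 2.30 ± 2.68.

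A laminin molecule is a trimer of 1 alpha, 1 beta and 1 gamma chain, and laminins assemble into a polymer at the cell surface, where they bind integrins and dystroglycan. Collagen IV trimers of Col4a1 and Col4a2 chains form a separate network, which nidogen and perlecan link to the laminin polymer. In the mouse, laminin chains are made during cleavage, and the primitive endoderm of the blastocyst and its parietal derivative are known for heavy secretion of laminin, collagen IV and Sparc. Because whole embryos were lysed, fewer cells of a type and less RNA per cell cannot be told apart.

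The promoters of the genes that the blastocyst results turn on follow, to show the sequence around the start of those that fell (Lamb1 and Serpinh1), the one that rose (Hspg2) and the collagen IV pair that start head to head. They are from RefSeq (GRCm38.p6), 250 bases before to 50 after the start, read 5′ to 3′ on the gene's own strand. In the first 3, capitals mark the letters GGGCGG or CCAAT on either strand, and no 2 matches overlap.
Lamb1, chr12:31265043-31265342, plus strand: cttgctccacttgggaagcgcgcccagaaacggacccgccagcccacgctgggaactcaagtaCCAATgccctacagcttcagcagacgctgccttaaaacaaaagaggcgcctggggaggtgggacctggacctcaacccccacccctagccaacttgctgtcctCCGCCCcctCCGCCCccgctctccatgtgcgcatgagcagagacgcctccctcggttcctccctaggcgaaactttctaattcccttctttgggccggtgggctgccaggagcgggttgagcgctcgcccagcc
Serpinh1, chr7:99353190-99353489, minus strand: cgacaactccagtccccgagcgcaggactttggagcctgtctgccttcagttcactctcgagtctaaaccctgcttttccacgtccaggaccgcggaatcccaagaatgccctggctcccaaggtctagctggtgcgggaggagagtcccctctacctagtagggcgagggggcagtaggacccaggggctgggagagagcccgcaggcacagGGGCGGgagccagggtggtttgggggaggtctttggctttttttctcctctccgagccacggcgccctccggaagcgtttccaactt
Hspg2, chr4:137468553-137468852, plus strand: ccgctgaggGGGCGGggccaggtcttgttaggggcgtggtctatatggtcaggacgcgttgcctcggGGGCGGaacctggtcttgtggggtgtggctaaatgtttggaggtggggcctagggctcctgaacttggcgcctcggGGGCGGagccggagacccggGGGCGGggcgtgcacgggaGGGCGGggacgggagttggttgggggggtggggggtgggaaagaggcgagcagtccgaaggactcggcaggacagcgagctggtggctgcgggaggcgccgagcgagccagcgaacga
In the collagen IV pair, capitals mark the 78 bases (chr8:11312777-11312854) that both windows hold, each the reverse complement of the other.
Col4a1, chr8:11312777-11313076, minus strand: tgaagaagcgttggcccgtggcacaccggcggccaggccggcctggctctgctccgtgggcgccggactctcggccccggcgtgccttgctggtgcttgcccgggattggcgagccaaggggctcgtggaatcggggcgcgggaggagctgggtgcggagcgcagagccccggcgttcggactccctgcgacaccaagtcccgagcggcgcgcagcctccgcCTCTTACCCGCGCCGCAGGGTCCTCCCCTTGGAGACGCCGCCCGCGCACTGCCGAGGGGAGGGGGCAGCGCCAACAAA
Col4a2, chr8:11312555-11312854, plus strand: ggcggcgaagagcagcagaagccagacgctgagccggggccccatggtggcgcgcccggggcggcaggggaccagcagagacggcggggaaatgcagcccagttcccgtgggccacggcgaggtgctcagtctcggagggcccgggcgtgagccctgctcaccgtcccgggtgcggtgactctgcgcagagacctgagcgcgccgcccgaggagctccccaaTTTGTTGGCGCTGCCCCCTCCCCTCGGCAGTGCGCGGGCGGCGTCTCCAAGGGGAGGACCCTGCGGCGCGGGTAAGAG
Of the 10 members, 8 had a promoter in the RefSeq table. The GC box GGGCGG was in 7 of the 8 (35.7% of all 32851 promoters), with 5 matches in Hspg2, 2 in Lamb1 and 1 in Serpinh1. The only match of Col4a1 lies in the 78 bases shared with Col4a2 and is also a match there, so this site counts for both. The members' promoters held 55.3% to 74% G and C, against a median of 52.7% over all promoters. The GC box count was not compared with promoters of like G and C content. CCAAT was in 4 of the 8 (37.4% of all), Lamb1, Col4a1, Col4a2 and Nid1. The GATA letters AGATAA and TGATAA, in 11.2% and 9.05% of all promoters, were in none of the 8 on either strand.

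In blastocysts the laminin beta-1 gene fell in MZ_KO embryos against each of the other groups. Lamb1 (ENSMUSG00000002900, chr12:31265234-31329644 in GRCm38, the build of all positions here) encodes the beta-1 chain shared by the main embryonic laminins. Its level was 10.9, 11.8 and 6.78 CPM in MZ_KO embryos 2, 6 and 7. It was 70.4, 54.9, 49.3 and 49.5 CPM in M_KO embryos 1, 3, 4 and 5, 41.5, 117 and 95.4 CPM in WT_flfl embryos 1, 7 and 9, and 33.1, 27.5, 96.0 and 117 CPM in het embryos 3, 5, 6 and 8. All 3 MZ_KO values lay below all 11 others. By limma's moderated test on log2(CPM + 1), on which all log2 fold changes below are given, Lamb1 fell 5.34-fold against M_KO (log2 fold change -2.42, SE 0.45, adjusted p = 0.00263). It fell 7.43-fold against WT_flfl (-2.89, SE 0.48, adjusted p = 0.00107) and 5.46-fold against het (-2.45, SE 0.45, adjusted p = 0.00179). With voom precision weights the M_KO comparison missed the threshold (adjusted p = 0.0552).

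Lamc1, Lama5 and Lama1 did not pass the test against any group. Lamc1 (ENSMUSG00000026478, chr1:153218922-153332786), the gamma-1 partner of the same trimers, was at 49.7, 41.5 and 68.3 CPM in MZ_KO, 85.2, 27.5, 67.5 and 61.9 in M_KO, 45.1, 80.0 and 62.2 in WT_flfl, and 86.2, 78.8, 113 and 157 in het. MZ_KO lay below every het embryo and overlapped M_KO and WT_flfl. The log2 fold change was -0.997 against het (SE 0.34, adjusted p = 0.0516), -0.22 against WT_flfl (adjusted p = 0.737) and -0.10 against M_KO (adjusted p = 0.879). Leaving out MZ_KO 7 or het 5 brought the het comparison past the threshold (adjusted p = 0.0456 and 0.0479).

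Lama5 (ENSMUSG00000015647, chr2:180176373-180225859), the alpha-5 chain of epithelial laminin, was at 35.8, 54.7 and 74.8 CPM in MZ_KO, 85.3, 48.6, 76.3 and 39.8 in M_KO, 90.7, 84.9 and 118 in WT_flfl, and 82.9, 72.4, 77.2 and 52.7 in het. MZ_KO lay below WT_flfl, and so did het. Against WT_flfl the log2 fold change was -0.86 (SE 0.31, adjusted p = 0.0739), against het -0.41 (adjusted p = 0.354) and against M_KO -0.17 (adjusted p = 0.750); without MZ_KO 7 the first passed (adjusted p = 0.0362). Lama1 (ENSMUSG00000032796, chr17:67697259-67822647), the alpha-1 chain of the first embryonic laminin, was low and uneven: 8.16, 0 and 12.5 CPM in MZ_KO, 29.5, 34.1, 5.2 and 5.2 in M_KO, 11.4, 4.37 and 19.1 in WT_flfl, and 0, 3.9, 18.1 and 108 in het. Its groups overlapped in every comparison, and its SE of 1.25 to 1.33 on the log2 scale left all adjusted p between 0.469 and 0.615 for MZ_KO against the 3 other groups.

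Of the collagen IV chains, Col4a1 passed the test in 1 of the 3 comparisons of MZ_KO and Col4a2 in 0, and the difference between the chains was not tested. Col4a1 (ENSMUSG00000031502, chr8:11198423-11312826) was at 31.6, 22.6 and 67.9 CPM in MZ_KO, 49.0, 49.1, 57.4 and 62.0 in M_KO, 50.02, 83.5 and 51.6 in WT_flfl, and 59.2, 65.0, 71.9 and 127 in het. MZ_KO 7 lay among the other groups and MZ_KO 2 and 6 below them. Col4a1 fell 2.08-fold against het (log2 fold change -1.06, SE 0.33, adjusted p = 0.0367), and its change was -0.70 against WT_flfl (adjusted p = 0.208) and -0.55 against M_KO (adjusted p = 0.309). The het call was lost without MZ_KO 2 (adjusted p = 0.120), MZ_KO 6 (0.182), het 6 (0.0648) or het 8 (0.0954), while without MZ_KO 7 Col4a1 passed against WT_flfl too (adjusted p = 0.0325).

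Col4a2 (ENSMUSG00000031503, chr8:11312805-11449287), its partner chain, was at 7.62, 35.2 and 18.1 CPM in MZ_KO, 20.9, 12.3, 20.6 and 17.2 in M_KO, 6.32, 34.5 and 22.1 in WT_flfl, and 23.6, 7.11, 24 and 25.1 in het. All 4 groups overlapped. The log2 fold change of MZ_KO was -0.07 against het, with a 95% interval from -1.27 to 1.13, and -0.02 against M_KO, from -1.22 to 1.18, so that changes of about 2-fold either way remain within the interval. The gene starts overlap by 22 bases, and the libraries do not mark strand, so reads in that stretch cannot be assigned to one of the pair. Per kilobase of exon, Col4a1 stood above Col4a2 in 13 of 14 blastocysts, the exception being MZ_KO 6, and in 9 of 13 morulae. Among the other morulae, MZKO 6, del 3 and het 5 had Col4a2 higher, and del 6, the shallowest library, had both at 0.

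Perlecan went the opposite way to Lamb1. Hspg2 (ENSMUSG00000028763, chr4:137468769-137570630) was at 22.6, 30.3 and 30.7 CPM in MZ_KO. It was at 2.53, 2.61, 0.457 and 3.11 in M_KO, 1.38, 0.144 and 1.37 in WT_flfl, and 0.556, 4.28, 4.16 and 1.16 in het. The MZ_KO values lay above all 11 others, which reached 4.28 CPM at most. Hspg2 rose 9.68-fold against M_KO (log2 fold change 3.28, SE 0.68, adjusted p = 0.00529), 15.4-fold against WT_flfl (3.94, SE 0.73, adjusted p = 0.00224) and 9.25-fold against het (3.21, SE 0.68, adjusted p = 0.00430). Only the 3 MZ_KO embryos reached 10 CPM, so the gene entered the test through the group where it was high and had to differ there; its call adds no support to a count over the members. With voom weights the WT_flfl comparison missed the threshold (adjusted p = 0.0508). Nid1 (ENSMUSG00000005397, chr13:13437551-13512269), the nidogen that joins laminin to collagen IV, was steadier: 145, 162 and 221 CPM in MZ_KO, 189, 184, 133 and 150 in M_KO, 153, 169 and 110 in WT_flfl, and 156, 74.9, 155 and 161 in het. Its groups overlapped, with log2 fold changes of 0.10 to 0.40 for MZ_KO against the 3 other groups (adjusted p = 0.294 to 0.850).

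**Figure D1:**
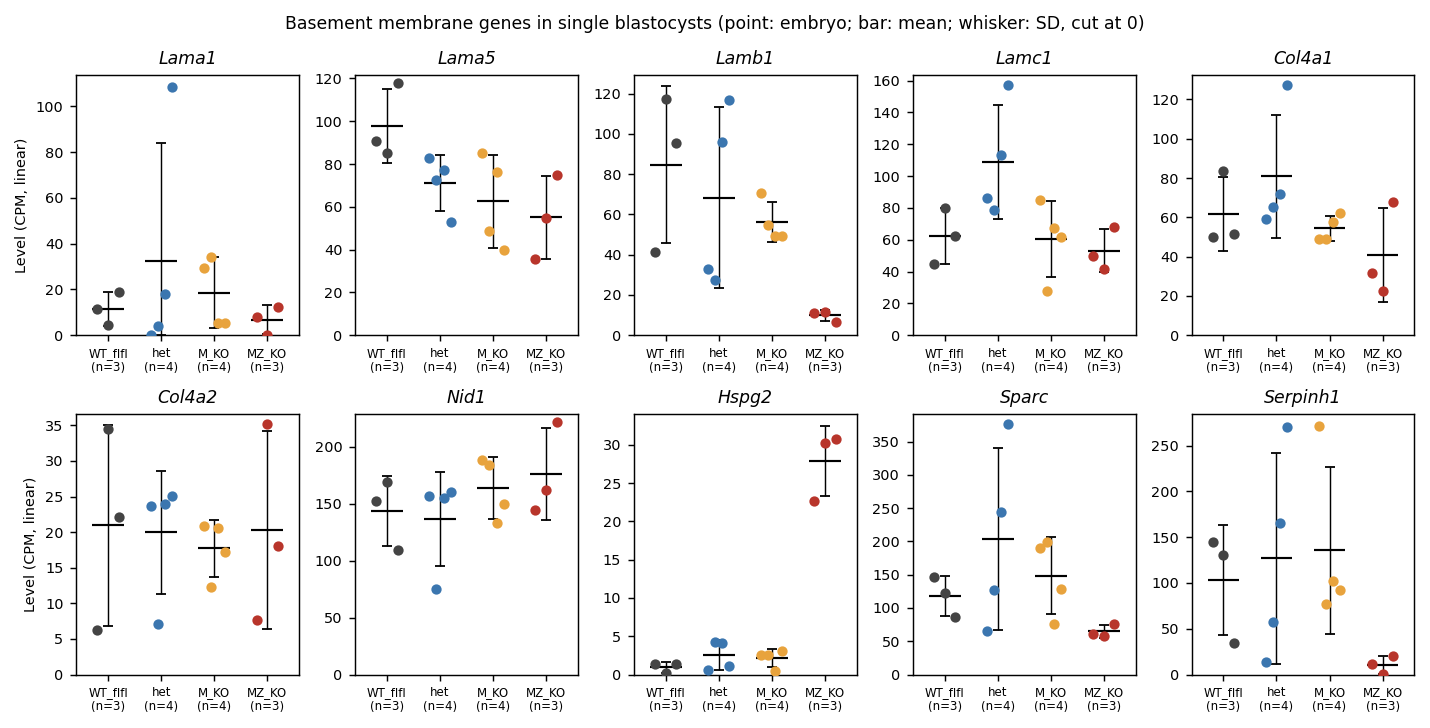
Levels of the 10 genes in blastocysts on a linear CPM axis, with 1 point for each embryo, a bar for the group mean and a whisker for the SD cut at 0. The 3 MZ_KO points for Lamb1 sit at 6.78 to 11.8 CPM, below every other embryo, and for Hspg2 at 22.6 to 30.7 CPM, above every other embryo.

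The chaperone of collagen folding also fell in MZ_KO. Serpinh1 (ENSMUSG00000070436, chr7:99345376-99353239), which holds procollagen in the endoplasmic reticulum, was at 11.3, 0.184 and 20.2 CPM in MZ_KO, the value of embryo 6 resting on 4 reads. It was at 271, 77.2, 102 and 92.1 in M_KO, 145, 131 and 34.1 in WT_flfl, and 13.4, 57.9, 166 and 270 in het. MZ_KO lay below M_KO and WT_flfl, and het 3 lay among the MZ_KO values. Serpinh1 fell 17.7-fold against M_KO (log2 fold change -4.15, SE 0.95, adjusted p = 0.00995), 13-fold against WT_flfl (-3.70, SE 1.02, adjusted p = 0.0241) and 11.7-fold against het (-3.54, SE 0.95, adjusted p = 0.0168). Without MZ_KO 6 no call held, and the log2 fold changes were -2.89, -2.44 and -2.29 (adjusted p = 0.0533, 0.107 and 0.0995) in that order. Without MZ_KO 7 they were -4.97, -4.52 and -4.37. The WT_flfl value was -4.36 without WT_flfl 9, and the het value -4.36 without het 3 and -2.95 without het 8; these calls held. The WT_flfl call was also lost without WT_flfl 1 (0.0803) or 7 (0.0824), and the het call without het 6 (0.0517), and all 3 were lost with voom weights (0.320, 0.332 and 0.306 against M_KO, WT_flfl and het).

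Sparc (ENSMUSG00000018593, chr11:55394500-55423183), which binds collagen IV outside the cell, was at 60.8, 58.6 and 76.1 CPM in MZ_KO, 191, 199, 76.2 and 128 in M_KO, 146, 123 and 86.6 in WT_flfl, and 65.7, 127, 245 and 376 in het. MZ_KO lay below all M_KO and WT_flfl embryos, by a narrow margin at M_KO 4, and overlapped het 3. Sparc fell 2.55-fold against het (log2 fold change -1.35, SE 0.45, adjusted p = 0.0452), with changes of -1.09 against M_KO (adjusted p = 0.126) and -0.83 against WT_flfl (adjusted p = 0.269). The het call was lost without MZ_KO 2 (adjusted p = 0.120), 6 (0.119) or 7 (0.0656), or without het 5 (0.0518), 6 (0.119) or 8 (0.117).

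Counted over the list, MZ_KO against WT_flfl gave 1 of 10 tested members higher (Hspg2) and 2 lower (Lamb1 and Serpinh1), where 4.84% of the 9585 genes tested were called higher and 8.36% lower. Against het 1 was higher and 4 lower (Lamb1, Col4a1, Sparc and Serpinh1), where 7.02% and 10.8% of all genes were called. Against M_KO 1 was higher and 2 lower (Lamb1 and Serpinh1), where 3.74% and 8.09% were called. The median log2 fold change of the members was -0.77, -1.01 and -0.36 in that order, beside -0.05, -0.06 and -0.03 over all genes tested. These 3 comparisons share the same MZ_KO embryos and are not independent.

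**Figure D2:**
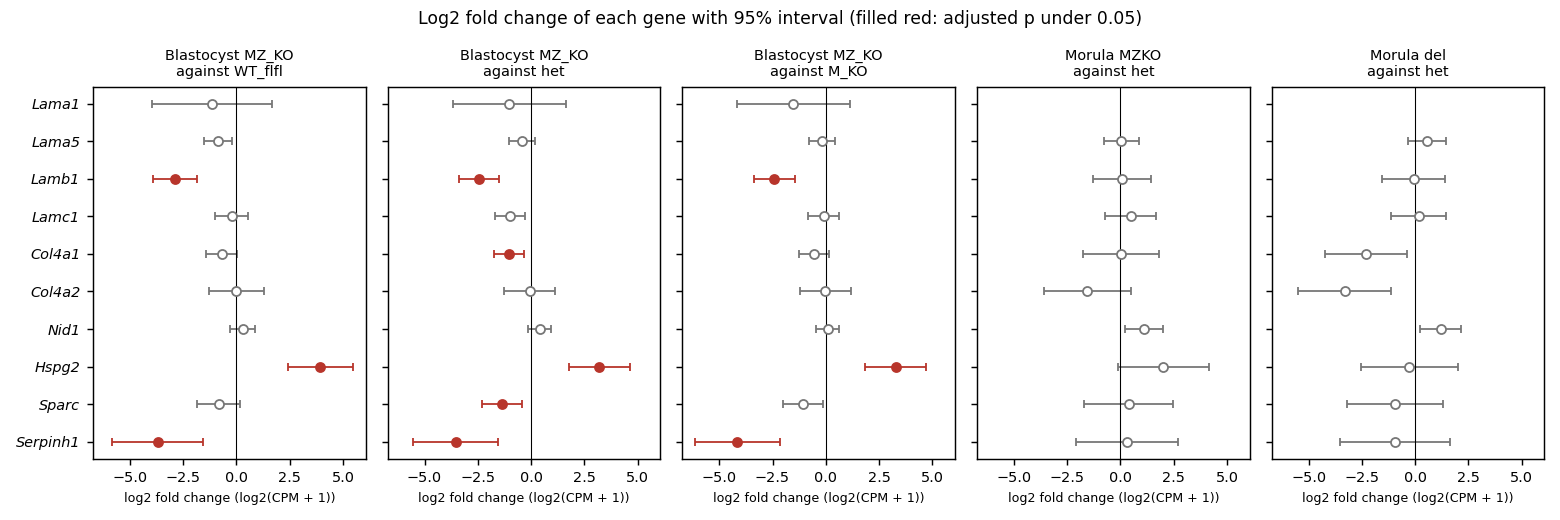
Log2 fold changes on the log2(CPM + 1) scale with 95% intervals for each member in 5 comparisons; red filled points passed an adjusted p of 0.05. Lamb1 and Serpinh1 lie below 0 and Hspg2 above 0 in the 3 MZ_KO comparisons, and no morula point passed.

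Among the blastocyst groups with Ctcf RNA no member passed. In M_KO against WT_flfl 0 of 10 were called by limma (0% of all genes higher and 0% lower), with 1 member at an unadjusted p under 0.05, Lama5 at a log2 fold change of -0.69 (adjusted p = 0.929). In M_KO against het 0 were called (0% and 0% of all genes), the 1 at an unadjusted p under 0.05 being Lamc1 at -0.89 (adjusted p = 0.722). In het against WT_flfl 0 were called (0% and 0%), again with Lamc1 alone at an unadjusted p under 0.05, at 0.78 (adjusted p = 0.999). With voom precision weights, the other limma weighting run, each count was also 0. Lamb1 differed by -0.48 between M_KO and WT_flfl, with a 95% interval from -1.43 to 0.48, and by -0.44 between het and WT_flfl, from -1.40 to 0.51.

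In morulae several members had embryos at or near 0, while nidogen was the most abundant member. Nid1 ran from 389 to 1393 CPM in MZKO (median 660, n = 6), was 962, 1150, 721 and 345 CPM in del embryos 2, 3, 4 and 6, and 395, 268 and 296 CPM in het embryos 1, 5 and 7. Mean levels were 777 ± 435 CPM in MZKO, 795 ± 347 in del and 320 ± 66.9 in het. The lowest MZKO and del embryos overlapped het 1. The log2 fold change was 1.10 in MZKO against het (SE 0.43, unadjusted p = 0.0188, adjusted p = 0.408, limma) and 1.198 in del against het (SE 0.46, adjusted p = 0.824), so neither passed over all 9953 genes tested.

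Lama5, the highest laminin chain of the morula per kilobase, ran from 37.8 to 105 CPM in MZKO (median 99.1), and was 72.5, 126, 220 and 80.7 in del and 67.5, 60.2 and 110 in het. Lamb1 ran from 12.6 to 66.4 CPM in MZKO (median 33.3), and was 50.5, 5.32, 51.0 and 27.9 in del and 38.6, 33.8 and 14.6 in het. Lamc1 ran from 9.69 to 29.5 CPM in MZKO (median 24.4), and was 13, 17.5, 41.0 and 8.13 in del and 31.9, 7.11 and 13.7 in het. For all 3 chains the groups overlapped, and for Lamb1, which fell in MZ_KO blastocysts, MZKO against het gave a log2 fold change of 0.08 with a 95% interval from -1.27 to 1.44.

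Both collagen IV chains were low in del morulae. Col4a1 ran from 7.21 to 69.4 CPM in MZKO (median 30.6), and was 15.3, 4.25, 14.4 and 0 in del and 71.4, 9.68 and 32.6 in het. Col4a2 ran from 0.156 to 15.3 CPM in MZKO (median 4.88), and was 0.168, 4.75, 0 and 0 in del and 16.7, 23 and 8.57 in het. For Col4a2, del lay below het in every embryo, and the 0 of del 6 is the least certain because that library was the shallowest. In del against het the log2 fold changes were -2.30 for Col4a1 (SE 0.91, unadjusted p = 0.0212, adjusted p = 0.858, limma) and -3.31 for Col4a2 (SE 1.05, unadjusted p = 0.00523, adjusted p = 0.646), and neither passed. MZKO against het gave 0.02 for Col4a1 and -1.55 for Col4a2 (adjusted p = 0.996 and 0.712).

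Hspg2 ran from 4.77 to 41.3 CPM in MZKO (median 21), and was 4.89, 15, 1.01 and 0 in del and 20.5, 0 and 3.23 in het. The groups overlapped, at a log2 fold change of 2.02 in MZKO against het (SE 1.01, adjusted p = 0.605). Sparc ran from 5.28 to 163 CPM in MZKO (median 22.6), and was 13.9, 14.3, 15.5 and 2.90 in del and 152, 12 and 3.78 in het. Serpinh1 ran from 0.557 to 29.3 CPM in MZKO (median 8.39), and was 1.60, 8.79, 3.38 and 0 in del and 42.6, 4.48 and 0 in het. In MZKO 2 and 3 Serpinh1 was at 11.7 and 11.8 CPM. Within their groups, both genes were highest in MZKO 1 and het 1. Those were also the morulae with the highest summed level of 10 fibroblast and stroma markers (9 listed), at 536 and 545 CPM, against group medians of 143 in MZKO, 18.8 in del and 36 in het; their part in the result was not tested.

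**Figure D3:**
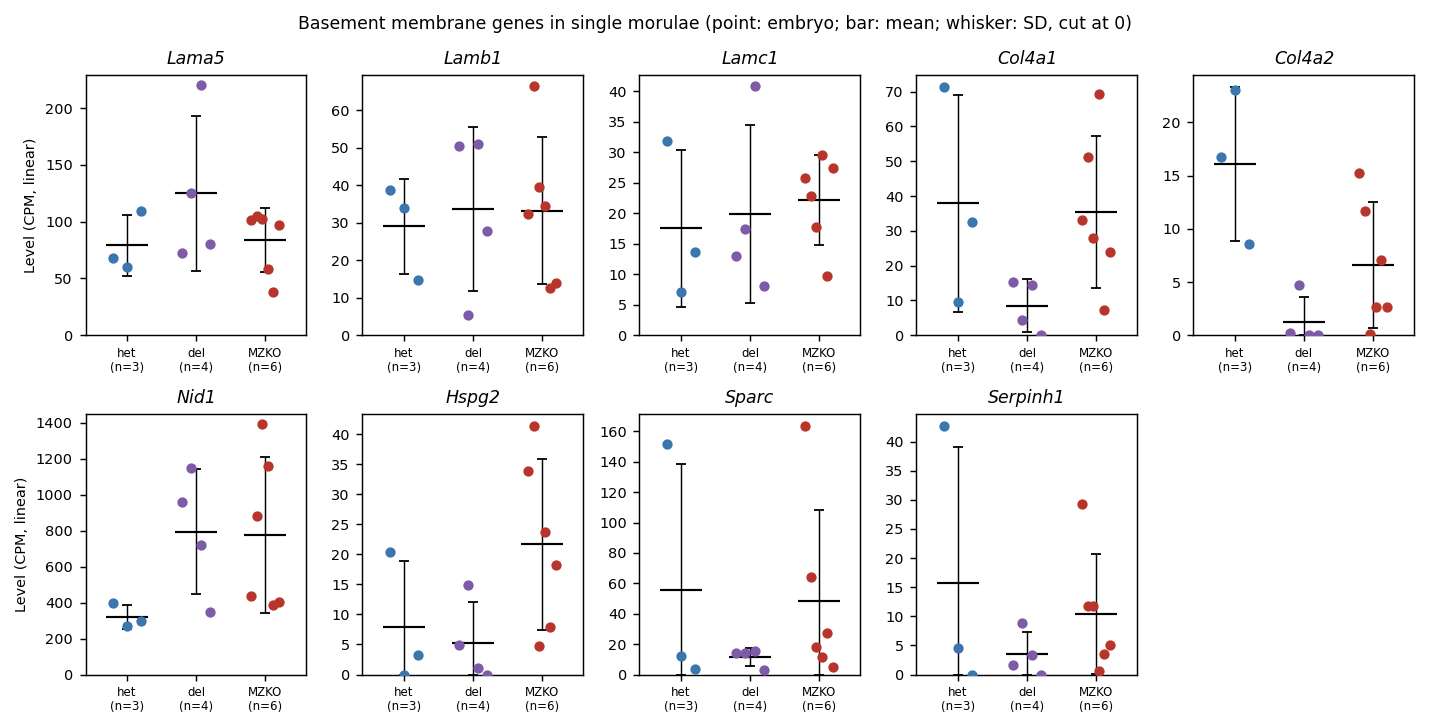
Levels of the 9 genes listed in morulae on linear CPM axes, with 1 point for each embryo, a bar for the mean and a whisker for the SD cut at 0. Nid1 lies between 268 and 1393 CPM, Col4a2 of the del embryos lies below all het embryos, and Sparc has 1 high embryo in MZKO and 1 in het.

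In morula MZKO against het limma called 0 of 9 members (0.412% of all genes higher and 0.0703% lower), with 1 at an unadjusted p under 0.05. In MZKO against del it called 0 (0.141% and 0.0402%), with 2 at an unadjusted p under 0.05, Col4a1 at a log2 fold change of 2.32 and Hspg2 at 2.30 (adjusted p = 0.379 and 0.499). The 5 stroma markers tested were all at an unadjusted p under 0.05 there too (median log2 fold change 3.14, 0 called), with summed levels of 71 to 536 CPM in MZKO and 1.74 to 53.1 CPM in del, and their part was not tested. In del against het it called 0 (0% and 0.01%), with 3 at an unadjusted p under 0.05, Col4a1, Col4a2 and Nid1. Of the 5 blood markers tested 4 were at an unadjusted p under 0.05 in that comparison (median -5.41, 0 called), with summed levels of 14.5 to 90.3 CPM in del and 394 to 15559 CPM in het, and their part was not tested. Each count was also 0 with voom weights. Median log2 fold changes of the members were 0.32, 1.25 and -0.28 in that order, beside -0.02, 0.02 and -0.04 over all genes tested.

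The difference between the stages was tested directly, as the MZ effect against het in blastocysts minus that in morulae. It passed for 0 of 9 members (0.63% of 8572 genes higher and 0.98% lower), with 3 at an unadjusted p under 0.05 and 0 with voom weights. The median difference of the members was -1.08, beside 0.01 over all genes. For Lamb1 it was -2.53 (SE 0.85, unadjusted p = 0.00612, adjusted p = 0.115, limma), for Lamc1 -1.47 (SE 0.66, adjusted p = 0.235) and for Serpinh1 -3.86 (SE 1.55, adjusted p = 0.182). Without morula het 1, the embryo with the highest Serpinh1 of its stage, the Serpinh1 difference was -5.27 and passed (adjusted p = 0.0310).

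Set per kilobase of exon so that genes can be ranked, the 14 blastocysts placed Serpinh1 (median 34.7 CPM per kb, mean 40.7 ± 36.6) and Sparc (33, mean 36.9 ± 23.5) first, followed by Nid1 (22.4, mean 22.2 ± 5.02). Lamc1 (8.21), Col4a1 (7.82), Lama5 (6.64) and Lamb1 (4.98) followed, each differing from the next by less than their SDs of 1.96 to 3.94. The order of these neighbours is therefore not taken as resolved, nor is that among Serpinh1, Sparc and Nid1. Col4a2 (3.14), Lama1 (1.01) and Hspg2 (0.180) were last, each nearer to the next than the larger of their SDs. These medians pool the genotypes. In the 3 MZ_KO blastocysts alone, as a description with no test, Nid1 (mean 25.4 ± 5.80 CPM per kb) and Sparc (17.2 ± 2.52) came first, then Lamc1 (6.43 ± 1.66), Col4a1 (5.45 ± 3.21), Lama5 (4.84 ± 1.71), Serpinh1 (4.32 ± 4.10) and Col4a2 (3.07 ± 2.10), each nearer to the next than the larger of their SDs. Hspg2 (1.95 ± 0.318), Lamb1 (0.989 ± 0.268) and Lama1 (0.710 ± 0.654) were last. In the 13 morulae Nid1 was first (63.1, mean 97.5 ± 56.0), well above Lama5 (8.49, mean 8.37 ± 3.96), and Sparc (3.76), Lamb1 (3.41), Col4a1 (3.20), Lamc1 (2.15) and Serpinh1 (1.83) each differed from the next by less than the larger of their SDs. Col4a2 (0.718) and Hspg2 (0.558) were last. Serpinh1 reached 10 CPM in 13 of 14 blastocysts and 4 of 13 morulae, and Col4a2 in 11 and 4; the tables were scaled separately, and levels across stages were not tested.

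**Figure D4:**
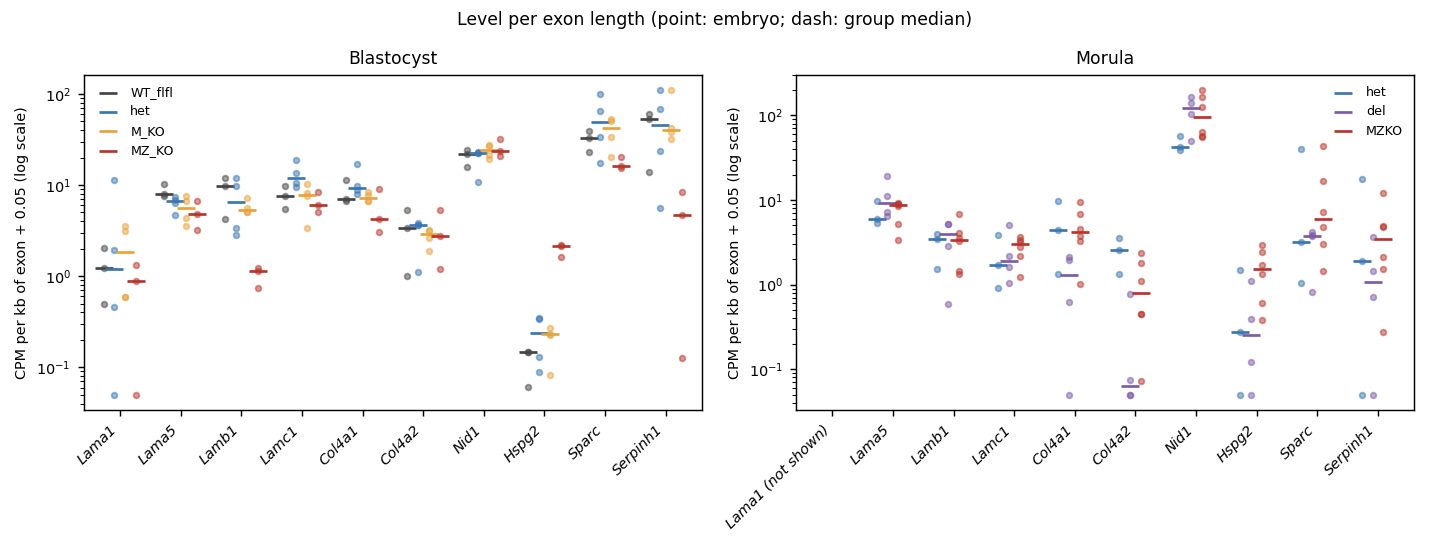
Levels per kilobase of exon, as CPM per kb plus 0.05 on a log axis, for each embryo (points) and group median (dashes) at each stage. By group median Nid1 leads in morulae, and in the blastocyst groups other than MZ_KO Serpinh1 and Sparc lead and Hspg2 is last.

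Single embryos were high for several members together. Blastocyst het 8 was the highest of 14 for Lama1, Lamc1, Col4a1 and Sparc and among the top 3 for 7 of 10 members. It had the primitive endoderm genes Gata4, Gata6, Sox17 and Pdgfra at 73.9, 235, 127 and 91.2 CPM. Pdgfra was higher in M_KO 1, at 107 CPM. Summed over the 12 listed primitive endoderm markers, no het blastocyst was above 1423 CPM, while MZ_KO blastocysts reached 1587 CPM. Whether het 8 held more primitive endoderm was not tested. As a description with no test, within-group deviations of member pairs correlated positively in 31 of 45 pairs over 14 blastocysts (median Pearson r 0.275, from -0.373 for Col4a2 with Hspg2 to 0.819 for Lama1 with Sparc) and in 30 of 36 over 13 morulae (median 0.345, highest 0.843 for Sparc with Serpinh1). The genes outside the list whose within-group deviations were most like the members' mean were Nlrx1, Pmaip1, Ctsb, Rrbp1 and Tfpi in blastocysts (r from 0.909 to 0.869 among 9575 genes) and Sept9, Iqgap1, Top2b, Morf4l2 and Tuba1b in morulae (0.959 to 0.923 among 9944). All values in an embryo share its library and its scaling.

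Serpinh1 works with a set of enzymes that modify, fold and export procollagen, and several of these were lower in MZ_KO blastocysts. Of 24 such genes 18 were tested, and 1 rose and 4 fell against WT_flfl (4.84% and 8.36% of all genes tested were called higher and lower), 0 and 4 against het (7.02% and 10.8%), and 0 and 4 against M_KO (3.74% and 8.09%), with median log2 fold changes of -0.37, -0.47 and -0.43. P4hb, the protein disulfide isomerase that is also the beta subunit of prolyl 4-hydroxylase, was at 274, 392 and 340 CPM in MZ_KO and between 563 and 946 CPM in the 11 others, with no overlap. It fell by 1.11 against M_KO (SE 0.17, adjusted p = 0.000610), by 1.07 against WT_flfl (SE 0.19, adjusted p = 0.00139) and by 0.98 against het (SE 0.17, adjusted p = 0.00130) on the log2 scale. Colgalt1, which puts galactose on collagen hydroxylysine, was at 23.8 ± 0.683 CPM in MZ_KO, 45.9 ± 9.67 in M_KO, 60.1 ± 8.92 in WT_flfl and 61.3 ± 5.41 in het, and fell by 0.90, 1.29 and 1.33 (adjusted p = 0.0129, 0.00170 and 0.000656; the first 0.0677 with only those groups in the fit).

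Plod2, a lysyl hydroxylase, fell by 2.29 against WT_flfl and by 1.92 against het on the log2 scale (adjusted p = 0.0231 and 0.0316), and was at -1.79 against M_KO (adjusted p = 0.0557). Each Plod2 call depended on single embryos: it was lost without MZ_KO 6, WT_flfl 7 or WT_flfl 9 (adjusted p = 0.0818, 0.0737 and 0.0795), and against het without MZ_KO 6, het 3 or het 6 (0.160, 0.0607 and 0.0738), while the M_KO comparison passed without M_KO 3 or MZ_KO 7 (0.0326 and 0.0168). Without MZ_KO 6 the WT_flfl and het values were -1.43 and -1.05, and without MZ_KO 7 -2.91 and -2.54. Sec23a, of the vesicle coat that carries procollagen, fell by 1.23, 1.10 and 1.11 against WT_flfl, het and M_KO (adjusted p = 0.0379, 0.0379 and 0.0491), and each call was lost without MZ_KO 2 (0.100, 0.108 and 0.135) or MZ_KO 6 (0.165, 0.208 and 0.244), and also without WT_flfl 1 or 9 (0.0799 and 0.139), het 5 or 6 (0.0861 and 0.0976), or M_KO 1, 3 or 5 (0.0779, 0.0987 and 0.106). Pdia3, another disulfide isomerase, fell by 0.65 against M_KO (adjusted p = 0.0192), a call lost without M_KO 4, MZ_KO 2 or MZ_KO 6 (0.0509, 0.0518 and 0.107). Plod1, a second lysyl hydroxylase, was the one that rose, by 0.96 against WT_flfl (adjusted p = 0.0449), and that call was lost without MZ_KO 6 or 7 or WT_flfl 1 or 9 (0.113, 0.150, 0.0735 and 0.179). Against het it was at 0.73 (adjusted p = 0.0824; 0.0432 without MZ_KO 2), and P4ha1, the catalytic prolyl hydroxylase subunit, was at -0.20 against het (adjusted p = 0.702).

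In morulae, where 0.412% of all genes were called higher and 0.0703% lower in MZKO against het, 17 of these folding genes were tested. P4hb alone was called. It was at 415, 421 and 289 CPM in het, 653 to 995 CPM in MZKO (mean 881 ± 120) and 487, 661, 469 and 326 CPM in del, and rose by 1.24 in MZKO against het on the log2 scale (SE 0.25, adjusted p = 0.0296). MZKO lay above every het embryo. The call was lost without MZKO 2, 3, 4, 6 or 8 (adjusted p = 0.0778, 0.0715, 0.0726, 0.0626 and 0.0675), or without het 5 (0.0631) or het 7 (0.262). No folding gene passed in MZKO against del, where P4hb was at 0.89 (adjusted p = 0.198), or in del against het. The difference between the stages passed for P4hb, at -2.22 (SE 0.30, adjusted p = 0.000275). It was 1 of 16 folding genes tested there, where 0.63% of all genes were called higher and 0.98% lower.

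**Figure D5:**
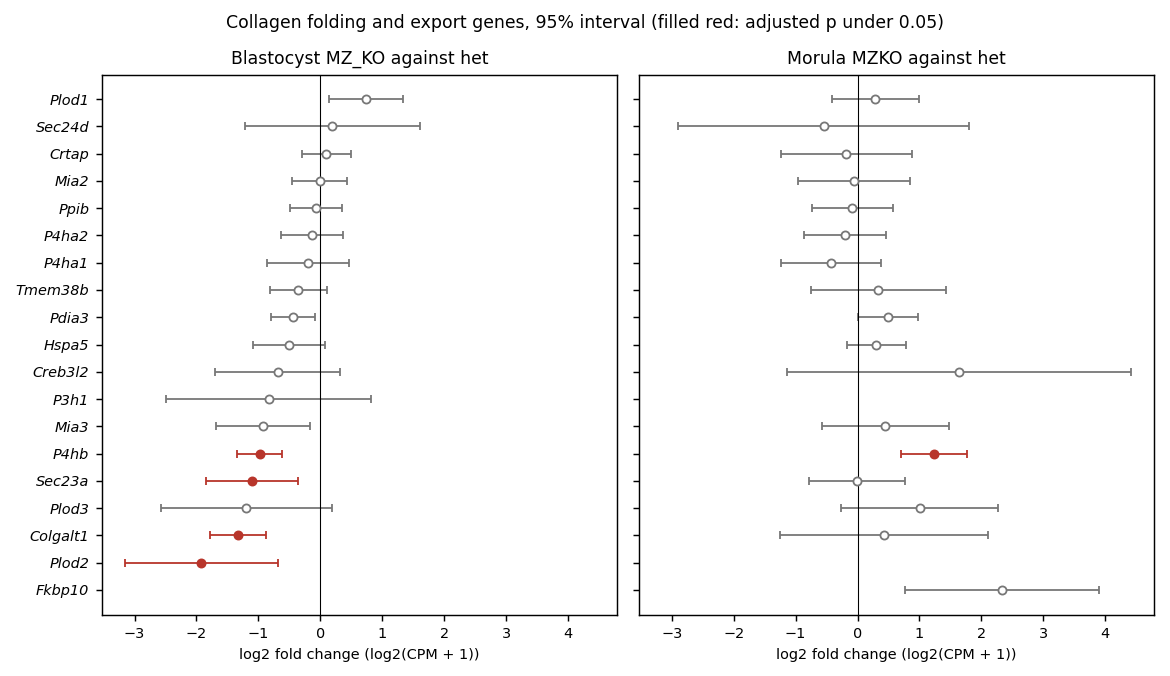
Log2 fold changes on the log2(CPM + 1) scale with 95% intervals for the collagen folding and export genes, MZ_KO against het in blastocysts and MZKO against het in morulae. P4hb lies at -0.98 in blastocysts and at 1.24 in morulae.

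Other matrix genes were read in the same comparisons. Against WT_flfl, het and M_KO, 4.84%, 7.02% and 3.74% of all genes tested rose and 8.36%, 10.8% and 8.09% fell. Of 18 other basement membrane components 5 were tested: Fbln1 (fibulin-1) fell by 0.73 against WT_flfl and by 0.90 against het on the log2 scale (adjusted p = 0.0495 and 0.0101), Nid2, the second nidogen, fell by 1.11 against het (adjusted p = 0.0471), Tinagl1 rose by 0.85 against het (adjusted p = 0.0320), and 0 passed against M_KO (1 at an unadjusted p under 0.05). Fbln1 lost its WT_flfl call without any 1 of the 6 embryos but MZ_KO 7 (adjusted p = 0.0725 and 0.182 without MZ_KO 2 and 6; 0.0981, 0.171 and 0.0602 without WT_flfl 1, 7 and 9) and its het call without MZ_KO 6 (0.0570). Nid2 lost its call without any embryo but het 5 (0.0604 to 0.160), and Tinagl1 without MZ_KO 2 or 6 or het 3 or 8 (0.0735, 0.117, 0.0660 and 0.0721). In morulae 7 of these components were tested, and limma called 0 and put 0 at an unadjusted p under 0.05 in each comparison.

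Of 20 receptors for these proteins 14 were tested in blastocysts, and 0 rose and 1, 2 and 2 fell against WT_flfl, het and M_KO, where 8.36%, 10.8% and 8.09% of all genes tested fell; these are counts near that background. Sdc4, a heparan sulfate proteoglycan that binds laminin and other matrix, was at 201 ± 39.9 CPM in MZ_KO, 301 ± 37.5 in M_KO, 370 ± 3.26 in WT_flfl and 325 ± 57.1 in het, and fell by 0.59, 0.89 and 0.69 on the log2 scale (adjusted p = 0.0263, 0.00296 and 0.00785). The first Sdc4 call was lost without M_KO 3 or 4 or MZ_KO 2 or 6 (0.0584, 0.0584, 0.100 and 0.108). Itga1, an integrin alpha chain that binds collagen IV, was at 1.295 ± 1.79 CPM in MZ_KO, 15.1 ± 4.34 in M_KO, 6.48 ± 1.88 in WT_flfl and 16.8 ± 13 in het, and fell by 3.05 against M_KO and by 2.94 against het (adjusted p = 0.00440 and 0.00396), calls that were lost with voom weights (0.306 and 0.287). Without MZ_KO 2 these values were -3.65 and -3.54. The common laminin receptor genes did not pass: Itgb1 was at -0.93, -0.77 and -0.63 against WT_flfl, het and M_KO (adjusted p = 0.0772, 0.101 and 0.215), Itga6 at -0.33, -0.65 and -0.63, and Dag1 (dystroglycan) at -0.39, -0.59 and -0.07.

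Inside the cell, of 11 adhesion adaptors 10 were tested in blastocysts, and 1 rose and 2 fell against WT_flfl and against het, and 1 fell against M_KO. Of all genes tested, 4.84%, 7.02% and 3.74% rose against WT_flfl, het and M_KO, and 8.36%, 10.8% and 8.09% fell. The adaptor counts are near that background. Rsu1, a partner of the integrin-linked kinase complex, fell by 1.45, 1.57 and 1.62 on the log2 scale (adjusted p = 0.0330, 0.0129 and 0.0151), a call lost against WT_flfl without MZ_KO 2 or 7 or WT_flfl 1 or 7 (0.0840, 0.0908, 0.120 and 0.124) and against M_KO without MZ_KO 7 (0.0545). Ptk2, focal adhesion kinase, fell by 1.36 against het (adjusted p = 0.00575) and by 1.22 against WT_flfl (adjusted p = 0.0193; 0.0743 without MZ_KO 2 and 0.0825 without WT_flfl 9). Parvb (beta-parvin) rose by 0.97 against het (adjusted p = 0.00736) and by 0.86 against WT_flfl (adjusted p = 0.0255), where the call was lost without MZ_KO 6 or 7 or WT_flfl 7 or 9 (0.0761, 0.0573, 0.0663 and 0.0844).

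Of 14 matrix proteases and inhibitors 8 were tested in blastocysts. There 1 rose and 0 fell against WT_flfl, 1 and 1 against het, and 0 and 1 against M_KO. The shares of all genes tested that rose were 4.84%, 7.02% and 3.74%, and those that fell 8.36%, 10.8% and 8.09%, in that order. Mmp15, a membrane-bound metalloproteinase, was at 14.4 ± 2.90 CPM in MZ_KO, 6.24 ± 2.23 in M_KO, 1.54 ± 1.35 in WT_flfl and 3.13 ± 1.61 in het. It rose by 2.73 against WT_flfl and by 1.98 against het on the log2 scale (adjusted p = 0.00910 and 0.0292), the latter lost without het 3 or 5 (0.0674 and 0.0585). As with Hspg2, only the 3 MZ_KO embryos reached 10 CPM, so Mmp15 entered the test through the group where it was high and had to differ there, and its calls support nothing about the list. Timp1, a metalloproteinase inhibitor, fell by 2.55 against het and by 2.54 against M_KO (adjusted p = 0.0143 and 0.0203); both calls were lost without MZ_KO 6 (0.0604 and 0.0774), and the latter without MZ_KO 7 (0.0535). In morulae 14 receptors, 11 adaptors and 6 proteases and inhibitors were tested, and limma called 0 in any comparison, with at most 1 gene of each list at an unadjusted p under 0.05.

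Markers of the cell types of the blastocyst were read in the same comparisons. Of 14 primitive endoderm markers 12 were listed and 8 tested, and 2 fell and 0 rose in each MZ_KO comparison. Of all genes tested, 8.36%, 10.8% and 8.09% fell against WT_flfl, het and M_KO, and 4.84%, 7.02% and 3.74% rose. Gata4 was at 0, 0 and 2.54 CPM in MZ_KO and between 7.68 and 73.9 CPM in the 11 others, and fell by 3.18 against M_KO, by 3.77 against WT_flfl and by 3.86 against het on the log2 scale (adjusted p = 0.00701, 0.00332 and 0.00144), calls that were lost with voom weights (0.551, 0.481 and 0.433). Sox17 was at 9.08, 6.15 and 9.14 CPM in MZ_KO and at least 15.8 CPM elsewhere, and fell by 2.09, 1.93 and 2.24 (adjusted p = 0.0196, 0.0366 and 0.00945). Sox17 lost its WT_flfl call without any 1 of the 6 embryos compared (adjusted p = 0.0586 to 0.114) and its M_KO call without M_KO 1 or MZ_KO 6 (0.0548 and 0.0669). Gata6 was at 0.12 against WT_flfl and 0.15 against het, and Pdgfra at 0.16 and -0.53, and neither passed. The summed level of the 12 listed markers was 1124 to 1587 CPM in MZ_KO, 1208 to 1366 in M_KO, 1017 to 1473 in WT_flfl and 1188 to 1423 in het, so the groups overlapped. The part of primitive endoderm in the falls of Lamb1, Serpinh1, Col4a1 and Sparc was not tested.

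Of 12 trophectoderm markers 11 were tested, and 4 fell and 0 rose in each MZ_KO comparison (Eomes, Fgfr2, Id2 and Krt8). For these and the epiblast counts below, the shares of all genes tested that fell against WT_flfl, het and M_KO were 8.36%, 10.8% and 8.09%. The shares that rose were 4.84%, 7.02% and 3.74%. Eomes, a trophoblast transcription factor, fell by 2.24 against M_KO and by 2.03 against het on the log2 scale (adjusted p = 0.00190 and 0.00260). Over 14 alternative settings and embryo leave-outs against WT_flfl, Fgfr2 and Krt8 kept their calls in all, Eomes in 9 and Id2 in 8. Id2 kept its het call in 5 of 15 (adjusted p up to 0.139, limma). Among epiblast calls against WT_flfl, Nanog held in 13 of 14, Gdf3 in 9 and Tdgf1 in 6. Summed trophectoderm levels were 4797 to 6312 CPM in MZ_KO, 6701 to 10889 in M_KO, 8201 to 8792 in WT_flfl and 5437 to 8751 in het. Of 9 epiblast markers 8 were tested, with 2 higher and 1 lower against WT_flfl, 3 and 2 against het, and 1 and 1 against M_KO; Nanog rose by 1.25 against het (adjusted p = 0.00210), and Tdgf1, a Nodal co-receptor, fell by 1.55 against M_KO (adjusted p = 0.000647). Summed epiblast levels were 1023 to 1197 CPM in MZ_KO, 1132 to 1249 in M_KO, 808 to 1087 in WT_flfl and 822 to 993 in het. Limma called 0 in blastocysts of 10 fibroblast and stroma markers (8 listed, 4 tested), 6 oviduct markers (4 tested) and 8 blood markers (5 tested). In each MZ_KO comparison 1 oviduct marker, Epcam, named after its values were seen, was at an unadjusted p under 0.05. The oviduct marker Ovgp1 was not, and 0 stroma or blood markers were. Of 8 granulosa and cumulus markers none was tested. Summed stroma levels ran from 0.367 to 149 CPM in MZ_KO, 4.90 to 90.6 in M_KO, 5.48 to 134 in WT_flfl and 13.9 to 334 in het, and summed blood levels reached 34498 CPM in WT_flfl 1 and 31508 CPM in het 6. Without those 2 blastocysts Serpinh1 lost its calls against WT_flfl and het (log2 fold changes -3.33 and -3.18, adjusted p = 0.0859 and 0.0611), as did Col4a1 (-1.09, adjusted p = 0.0763) and Sparc (-1.17, adjusted p = 0.134) against het, while Lamb1 and Hspg2 kept theirs.

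Neighbouring genes were read for context, 2 on each side of each member, of which 14 were tested in blastocysts and 14 in morulae. Gpr137b, a lysosomal membrane protein gene 43.5 kb before Nid1, was at 337 ± 6.78 CPM in MZ_KO, 139 ± 43.2 in M_KO, 112 ± 42.4 in WT_flfl and 104 ± 20.8 in het. It rose by 1.33 against M_KO, by 1.65 against WT_flfl and by 1.71 against het on the log2 scale (adjusted p = 0.00372, 0.00117 and 0.000438), beside Nid1 at 0.10, 0.29 and 0.40. G3bp1, a stress granule protein gene 46.5 kb after Sparc, was at 378 ± 2.92 CPM in MZ_KO, 594 ± 103 in M_KO, 593 ± 34.5 in WT_flfl and 661 ± 63.4 in het, and fell by 0.63, 0.65 and 0.80 (adjusted p = 0.00763, 0.00901 and 0.00118). Usp48, a ubiquitin protease gene 23.1 kb after Hspg2, fell by 0.50, 0.59 and 0.48 (adjusted p = 0.0454, 0.0284 and 0.0429) while Hspg2 rose; each Usp48 call was lost without MZ_KO 2 (0.169, 0.103 and 0.158), against M_KO also without MZ_KO 6 or 7 or M_KO 3, 4 or 5 (0.0716 to 0.106), against WT_flfl without WT_flfl 1, 7 or 9 (0.0675 to 0.0990 for 1 and 7, and just over the threshold for 9), and against het without MZ_KO 6 or 7 or het 3, 6 or 8 (0.0581 to 0.124). In all, 1 of the 14 (Gpr137b) rose in each MZ_KO comparison, where 4.84%, 7.02% and 3.74% of all genes rose against WT_flfl, het and M_KO. Against WT_flfl 4 fell, Usp48, G3bp1 and, named after their values were seen, Naxd and Gdpd5, and 2 fell each against het and M_KO, Usp48 and G3bp1 (8.36%, 10.8% and 8.09% of all genes fell). Naxd (log2 fold change -0.92, adjusted p = 0.0413) lost its call without MZ_KO 6 or any 1 WT_flfl embryo (0.0757 to 0.163). Gdpd5 (-2.45, adjusted p = 0.0457) lost its call without MZ_KO 2 or any 1 WT_flfl embryo (0.0667 to 0.150) and was at -1.46 without MZ_KO 7 (0.177) and -3.19 without MZ_KO 6, where the call held. No neighbour passed in the morula comparisons.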

How the data were processed

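RNA of single whole embryos was amplified as cDNA (SMART-Seq Ultra Low Input chemistry) and sequenced on an Illumina HiSeq 2500, per the labels' protocols. The submitters' processing notes name cutadapt 1.14, Bowtie2 2.2.9, RSEM 1.3.1 and GRCm38/mm10, without their roles. The authors deposited, per stage, log2 CPM values with a 0.5 read offset on scaled library sizes. From these, whole reads were recovered for 100% of values (within 0.01 read) and CPM recomputed. Genes at 10 CPM in at least 3 embryos were tested with limma 3.58.1 (R 4.3.3; moderated test with trend on log2(CPM + 1), all groups of a stage in 1 fit, Benjamini-Hochberg adjustment over all genes tested, threshold 0.05, no fold threshold); p-values measure only the spread between these embryos. The fold changes understate the change of low genes. The procedure was tested on simulated data. Symbols, exon lengths and neighbours came from GENCODE M21.

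The members and lists were chosen with earlier results of these data known. All 10 members are named; of each other list, up to 4 called genes by size of change plus Itgb1, Itga6, Dag1, P4ha1, Plod1, Plod2, Gata4, Gata6, Sox17 and Pdgfra; 5 genes per stage by likeness. The list of other laminin chains is not reported here. The repeat library of blastocyst het 3, of sequencing batch 2, was not analysed here. Alternatives were scaling, pseudocount (5 CPM), filter, the deposited log2 values, a fit of 2 groups, a replicate block, leaving out each embryo and, chosen after seeing the data, voom weights and leaving out embryos high in blood or stroma markers. Python 3.11.15 and matplotlib 3.10.9 drew the figures.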

Additional observations from a re-analysis of the deposited data

Results flagged for a closer look

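Of 38 groups of 4 to 10 embryos looked at, 7 held an embryo far from the rest of its group for a member. The rule flags about 5% of groups by chance when values are normal and groups independent. These CPM are skewed, some are 0, and the same embryos recur across genes, so the count cannot be compared with that rate. Blastocyst het 5 was low for Col4a2 (7.11 CPM, the others 23.6 to 25.1) and for Nid1 (74.9 CPM, the others 155 to 161). Blastocyst het 8 was high for Lama1 (108 CPM, the others 0 to 18.1), and blastocyst M_KO 1 for Serpinh1 (271 CPM, the others 77.2 to 102). Morula MZKO 1 was high for Sparc (163 CPM, the others 5.28 to 64.0), morula del 3 for Col4a2 (4.75 CPM, the others 0 to 0.168), and morula del 6, the shallowest library, was low for Sparc (2.90 CPM, the others 13.9 to 15.5).

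The MZ effect against het differed between blastocysts and morulae for the collagen-modifying gene P4hb, whose log2 difference was -2.22 with an SE of 0.30 (adjusted p = 0.000275, limma), and for the primitive endoderm gene Gata4, at -5.33 with an SE of 0.93 (adjusted p = 0.00292). The neighbour Gpr137b of Nid1 was at 1.84 for the same difference, with an SE of 0.44 and an adjusted p of 0.0265; its call went when leaving out blastocyst MZ_KO 2, 6 or 7, het 6 or 8, or morula het 5 or 7 (adjusted p from 0.0503 to 0.117). The libraries of each stage analysed here were of a different batch, so stage and batch cannot be told apart.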

How the results depend on the processing

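Over 16 results on single members and 242 alternatives of them, 202 kept their side of the threshold, 31 lost the call, 9 gained it and 0 changed direction. Lamb1 kept its calls except with voom weights against M_KO (adjusted p = 0.0552), and Hspg2 except with voom weights against WT_flfl (0.0508). Serpinh1 lost all 3 calls with voom weights (0.332, 0.306 and 0.320 against WT_flfl, het and M_KO), and the cause was not tested. Col4a1 and Sparc lost their calls against het with no filter on low values (0.0572 and 0.0725) and with only those 2 groups in the fit (0.0796 and 0.0698), and Sparc also on the deposited log2 values (0.0531) and with voom weights (0.0589). Lamc1 passed against het with a pseudocount of 5 (0.0461), with 2 groups (0.0323) and with voom weights (0.0415), and Sparc against M_KO with 2 groups (0.0469). The number of members called in MZ_KO against WT_flfl went from 3 to 1 with voom weights and ran from 1 to 4 when single embryos were left out. Against het it went from 5 to 6 with a pseudocount of 5, to 3 with no filter and to 2 without the 2 embryos high in blood markers, and ran from 1 to 5 with single embryos left out. Against M_KO it went from 3 to 4 with 2 groups and to 1 with voom weights and ran from 1 to 3 with single embryos left out. The between-stage count was 0 and ran from 0 to 1, and the other counts stayed at 0. Rescaling by median-of-ratios size factors moved the share of higher calls over all genes between stages from 39.1%, of 138 calls, to 57.4%. For del against het it moved from 0% to 33.3% (50% by read totals), and the main fit there held 1 call. Of 76 calls on list genes and neighbours, 24 held in every alternative.

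Adding the embryo number as a replicate block to M_KO against het and MZKO against del left 0 members called. The numbers did not pair embryos: deviations of same-numbered embryos correlated at -0.144 and -0.120 in the first and between -0.120 and 0.140 in the second; the other comparisons share fewer than 2 numbers. Depth limits the low values of morula del 6 most.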
